A study of Mus musculus with 4 samples.

Results

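The mitochondrial ribosomal protein genes were defined as the RefSeq protein-coding genes of build mm10 whose symbols start with Mrpl or Mrps followed by a digit. The rule found 78 genes among 21887 protein-coding genes, 49 of the large subunit (Mrpl) and 29 of the small subunit (Mrps) by symbol, on 17 chromosomes. A further 6 Mrpl or Mrps entries annotated as pseudogenes were left out. NR1D1 was mapped by CUT&Tag, an assay in which an antibody tethers Tn5 transposase near its target and the fragments released there are sequenced. The cells were primary vascular smooth muscle cells of wild-type mouse aorta, kept in serum-containing medium and treated for 24 h with vasostatin-2, a chromogranin A peptide, or with phosphate-buffered saline (PBS). Each treatment has 1 NR1D1 library, both labelled as the same batch, and the 2 IgG control libraries were not analysed here. No value therefore has a replicate error, no treatment effect was tested, and treatment and library cannot be told apart. The peptide's dose and the age of the mice are not given in the sources used here, and peak lists do not measure whether Acta2 or Myh11, which define smooth muscle, were expressed.

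Mitochondrial ribosomes translate the messages of mitochondrial DNA, which code for core subunits of the respiratory chain. Their proteins are encoded in the nucleus, made in the cytosol and imported, so the genes are spread over the genome. Most have short promoters of the housekeeping type, and many share the promoter region with a neighbour transcribed the other way. NR1D1 (REV-ERB alpha) is a nuclear receptor that represses transcription with the NCoR and HDAC3 corepressors, typically at elements built on the half-site AGGTCA.

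NR1D1 peaks lay at an end of 26 of the 78 members in at least 1 list, and fewer members had one in the vasostatin-2 list than in the PBS list. A gene counted when any base of a peak lay within 1 kb of either gene end. In the PBS list 22 of 78 members had a peak (28.2%, 95% Wilson interval 19.4 to 39.0), against 14.8% of all protein-coding genes. The vasostatin-2 list held one at 12 members (15.4%, 9.03 to 25), against 10.4% of all protein-coding genes. Both lists held a peak at 8 members (10.3%, against 7.19% of all genes), the PBS list alone at 14 (17.9%, against 7.58%) and the vasostatin-2 list alone at 4 (5.13%, against 3.2%). The remaining 52 members had no such peak, 32 of the large and 20 of the small subunit. Wilson intervals cover counting error over genes and not differences between cultures.

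The shares of the 2 subunits, grouped by symbol, are given with their intervals and were not tested against each other. Of the large subunit genes 13 of 49 had a PBS peak (26.5%, Wilson interval 16.2 to 40.3), and of the small subunit genes 9 of 29 (31.0%, 17.3 to 49.2). In the vasostatin-2 list the counts were 9 of 49 (18.4%, 9.98 to 31.4) and 3 of 29 (10.3%, 3.58 to 26.4). All 4 members found in the vasostatin-2 list alone belong to the large subunit, the larger group of genes. They are 4 of 49 (8.16%, 3.22 to 19.2), beside 0 of 29 (0 to 11.7) in the small subunit and 3.2% of all protein-coding genes. The intervals of the subunits overlap in both lists and for this class. Mrps30 and Mrps36, which count here as small subunit genes with a PBS peak, belong there by symbol only, as described below.

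Other gene families of similar size gave shares close to these. Cytosolic ribosomal protein genes had a PBS peak in 23 of 90 cases (25.6%) and a vasostatin-2 peak in 12 (13.3%). Nuclear genes of respiratory chain subunits, which work beside the products of mitochondrial translation, had one in 23 of 87 cases (26.4%) and 9 (10.3%). The Wilson intervals of the 3 families overlap in each list, and differences between the families were not tested. The families also differ from the average gene in length, with a median of 7690.5 bp for the members and 17169 bp for all protein-coding genes.

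**Figure D1:**
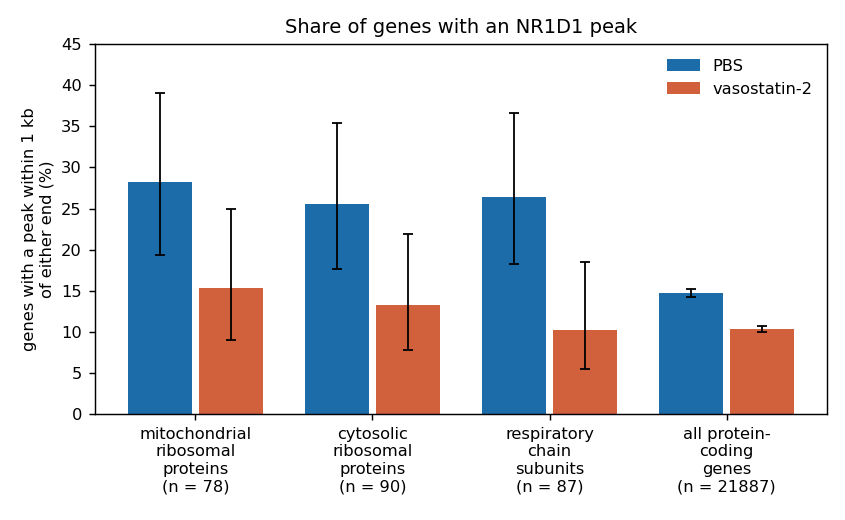
Share of genes (%, vertical axis) with an NR1D1 peak within 1 kb of either gene end, in the PBS list (blue) and the vasostatin-2 list (orange), with 95% Wilson intervals as bars. The 78 members stand at 28.2% and 15.4%, beside 25.6% and 13.3% for cytosolic ribosomal protein genes and 14.8% and 10.4% for all protein-coding genes.

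Where the gene start is known, the peaks were at starts and not at the other end. RefSeq lists a start with its strand for 69 of the 78 members. For the 20 PBS peaks at such members the summit, the position of highest signal, lay 416 bp before to 239 bp after the nearest listed start, with a median of -122 bp relative to it. Of these 18 (90%) were within 250 bp of the start, against 60.4% over 2801 pairs of a peak and a protein-coding gene. The 12 vasostatin-2 summits were spread from 763 bp before to 557 bp after a start, and 7 of them (58.3%) lay within 250 bp, against 54.7% over all pairs. Summits fell outside the transcribed gene at 15 of all 22 PBS peaks and 8 of all 12 vasostatin-2 peaks.

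**Figure D2:**
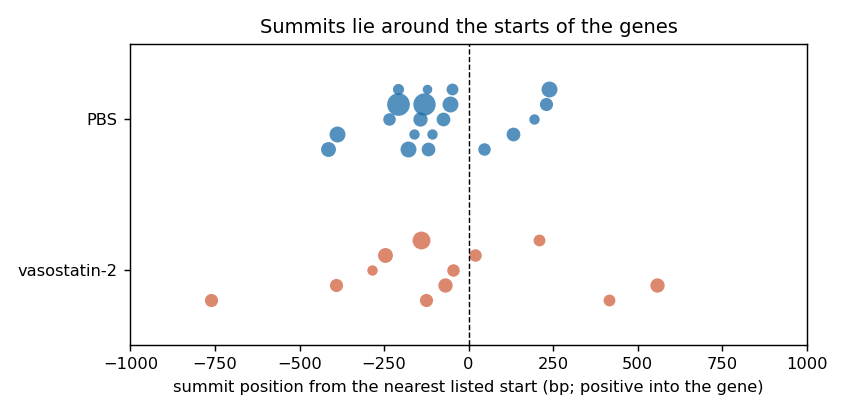
Position of each peak summit relative to the nearest listed start of the member (bp, horizontal axis, positive into the gene), for 20 PBS and 12 vasostatin-2 peaks. The area of a point grows with its summit fragments, and points are shifted vertically only to separate them. The PBS points sit between 416 bp before and 239 bp after the start, with most of them before it.

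A feature that the members' choice did not use is the crowding of their starts. At 33 of 69 members (47.8%) an end of another protein-coding gene lay within 1 kb of the start, against 14.1% of the 17492 protein-coding genes with a listed start. Over all genes, crowded starts had a PBS peak in 34.0% of cases and the others in 12.5%. Crowded members had one in 12 of 33 cases (36.4%) and the other members in 8 of 36 (22.2%). In the vasostatin-2 list the shares over all genes were 23.4% and 8.68%, and those of members 6 of 33 (18.2%) and 6 of 36 (16.7%). Crowded starts had a peak more often than other starts over all genes, and the part of crowding in the members' share was not tested.

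The 8 members with peaks of both lists were Mrpl11, Mrpl34, Mrpl40, Mrpl41, Mrpl55, Mrps14, Mrps16 and Mrps36. At all 8 the peaks overlapped by at least 1 bp, so that 10.3% of the members had a shared site, against 6.8% of all protein-coding genes. Of the 1573 protein-coding genes with peaks of both lists 1488 (94.6%) had overlapping ones. The DNA before the start is shown for 3 of them that differ in signal and layout: the strongest site, a short stretch between head-to-head genes, and the site whose fragment number stayed higher in vasostatin-2 after depth scaling, with an interval that includes equal signal. Each run ends at the base before the start, reads 5′ to 3′ on the strand of the member, and comes from RefSeq on GRCm38.p6, the assembly of mm10. Mrpl34 (chr8:71464708-71464925, plus strand) and Mrpl40 (chr16:18876638-18876749, minus strand) are shown up to the neighbouring gene, and Mrps14 (chr1:160194965-160195214, plus strand) over 250 bases. Capitals mark GC boxes (GGGCGG, or CCGCCC where the box is on the other strand) at Mrpl40 and Mrps14, and AACTACA, with what follows it when the longer element described below is present, at Mrpl34.
Mrpl34: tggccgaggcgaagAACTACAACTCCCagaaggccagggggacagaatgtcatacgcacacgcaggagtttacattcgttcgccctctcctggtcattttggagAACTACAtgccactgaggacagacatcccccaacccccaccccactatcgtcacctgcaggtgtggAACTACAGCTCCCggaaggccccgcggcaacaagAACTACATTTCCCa
Mrpl40: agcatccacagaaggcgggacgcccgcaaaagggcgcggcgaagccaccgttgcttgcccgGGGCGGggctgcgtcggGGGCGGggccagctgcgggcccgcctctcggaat
Mrps14: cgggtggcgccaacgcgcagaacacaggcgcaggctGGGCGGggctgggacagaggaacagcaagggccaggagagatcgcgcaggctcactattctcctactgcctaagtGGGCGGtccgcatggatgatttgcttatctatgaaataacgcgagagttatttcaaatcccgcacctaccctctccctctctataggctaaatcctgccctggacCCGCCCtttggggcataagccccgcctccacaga

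Mrpl34, which encodes a small protein of the large subunit, had the strongest shared site. Strength is given as the fragments covering the summit, worked back from the peak caller's values, as the authors' fold enrichment over the local background, and as their p and false discovery rate q on the -log10 scale. Its PBS peak (chr8:71464541-71464866) held 29 fragments at the summit, with the authors' 11.3-fold enrichment, -log10 p of 26.6 and -log10 q of 21.7, and ranked 162 by fold among the 7377 PBS peaks. Its vasostatin-2 peak (chr8:71464661-71465124) held 18 fragments, with 8.76-fold enrichment, -log10 p of 16.3 and -log10 q of 11.5, and ranked 414 among 8816. The summits lay 9 bp apart, 131 and 140 bp before the start, inside the 218 bp between Mrpl34 and the oppositely transcribed Abhd8. The stretch printed above is this interval.

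The Mrpl34 interval holds AACTACA 4 times, and 3 of these belong to ACTACA followed after 2 bases by TCCC, the form of the element bound by ZNF143. Of 17492 protein-coding promoters (250 bases before to 50 after a start, both strands searched) 3 hold this longer form at least 3 times, and 2.78% hold it at all. The element was searched for after the printed stretch had been read, so its presence at Mrpl34 is a description. Among the members with a listed start 1 of 24 with a peak (4.17%, Mrpl34) and 4 of 45 without a peak (8.89%) hold the longer form, beside 5.64% of all protein-coding genes with a PBS peak.

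Mrpl11, which encodes a protein at the base of the ribosomal stalk, held 14 fragments in PBS and 12 in vasostatin-2, with 7.43-fold and 8.11-fold enrichment, -log10 p of 12.4 and 12.9 and -log10 q of 8.2 and 8.44. The PBS peak (chr19:4962050-4962367) lay entirely within the vasostatin-2 peak (chr19:4962012-4962403), an overlap of 318 bp. The summits were 68 bp apart, 180 and 248 bp before the listed start, and no other gene ends within 1 kb of either peak. The listed start of Mrpl11 lies inside the gene model, and the PBS summit was 26 bp from the edge of the gene.

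Mrpl40 lies 112 bp from Hira, which encodes a histone chaperone and is transcribed the other way. The PBS peak (chr16:18876468-18876766, 10 fragments, 6.68-fold, -log10 p of 9.94, -log10 q of 5.99) had its summit 131 bp inside Mrpl40. The summit of the vasostatin-2 peak (chr16:18876586-18876883, 8 fragments, 6.1-fold, -log10 p of 8.66, -log10 q of 4.73) lay between the genes, 45 bp before the start of Mrpl40 and 68 bp from Hira. Mrpl41 lies 891 bp from Pnpla7, a lysophospholipase gene, and the peaks reached over most of that interval, with widths of 1003 bp in PBS and 835 bp in vasostatin-2. The summit of the PBS peak (chr2:24974875-24975877, 11 fragments, 6.35-fold, -log10 p of 9.64, -log10 q of 5.72) was 145 bp from Mrpl41. That of the vasostatin-2 peak (chr2:24975107-24975941, 9 fragments, 5.44-fold, -log10 p of 7.65, -log10 q of 3.91) was 129 bp from Pnpla7, so that 618 bp separated them. At both loci the peaks overlapped while their highest positions differed.

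Mrpl55 faces the noncoding gene 2610507I01Rik across 54 bp. It held 8 fragments in PBS (chr11:59202201-59202445, 4.81-fold, -log10 p of 6.44, -log10 q of 3.0) and 9 in vasostatin-2 (chr11:59202214-59202462, 5.44-fold, -log10 p of 7.65, -log10 q of 3.91). Both summits lay beyond that interval, in the noncoding gene, 236 and 127 bp before the Mrpl55 start.

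In the small subunit, Mrps14 had summits 50 and 70 bp before its start, 20 bp apart, and no other gene end within 1 kb. It held 7 fragments in PBS (chr1:160195138-160195455, 5.23-fold, -log10 p of 7.02, -log10 q of 3.49) and 11 in vasostatin-2 (chr1:160195012-160195271, 7.4-fold, -log10 p of 11.4, -log10 q of 7.11). Mrps16 held 9 fragments in PBS (chr14:20393256-20393482, -log10 p of 6.7, -log10 q of 3.22) and 8 in vasostatin-2 (chr14:20393442-20393719, -log10 p of 6.49, -log10 q of 3.0), at 4.84-fold in both lists. Its peaks shared 41 bp, and their summits were 355 bp apart. Mrps36 held 14 fragments in PBS (chr13:100743900-100744689, 8.06-fold, -log10 p of 13.4, -log10 q of 9.15) and 11 in vasostatin-2 (chr13:100743910-100744478, 6.04-fold, -log10 p of 9.15, -log10 q of 5.15), with summits 239 and 557 bp inside the gene. Its product was later assigned to the ketoglutarate dehydrogenase complex, and the gene belongs to the family here by its symbol.

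Across the 8 shared sites the vasostatin-2 library mostly held fewer fragments once the libraries were put on the same depth. The vasostatin-2 library was 1.32 times as deep, as read from the uniform background in the peak values. Fragments were fewer at 6 of 8 members without scaling, the exceptions being Mrpl55 and Mrps14, and at 7 of 8 after division by 1.32, the exception being Mrps14. The depth-scaled ratio of vasostatin-2 to PBS was 0.47 at Mrpl34 (95% exact binomial interval 0.246 to 0.876), 0.595 at Mrps36 (0.245 to 1.41), 0.649 at Mrpl11 (0.274 to 1.51) and 1.19 at Mrps14 (0.421 to 3.62). At 1 of the 8 members, Mrpl34, the interval left out 1, and this pair held the most fragments of the 8 (47 over both libraries). The median log2 ratio over the 8 was -0.66, with a range of -1.09 to 0.25. Over all 1210 shared pairs at protein-coding gene ends the median was -0.86 and 95.5% were below 0, a shift that the members shared. The Mrpl34 interval includes this median shift, so leaving out 1 does not set Mrpl34 apart from the other shared pairs. These intervals cover counting error only, and the ratios compare 2 libraries.

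**Figure D3:**
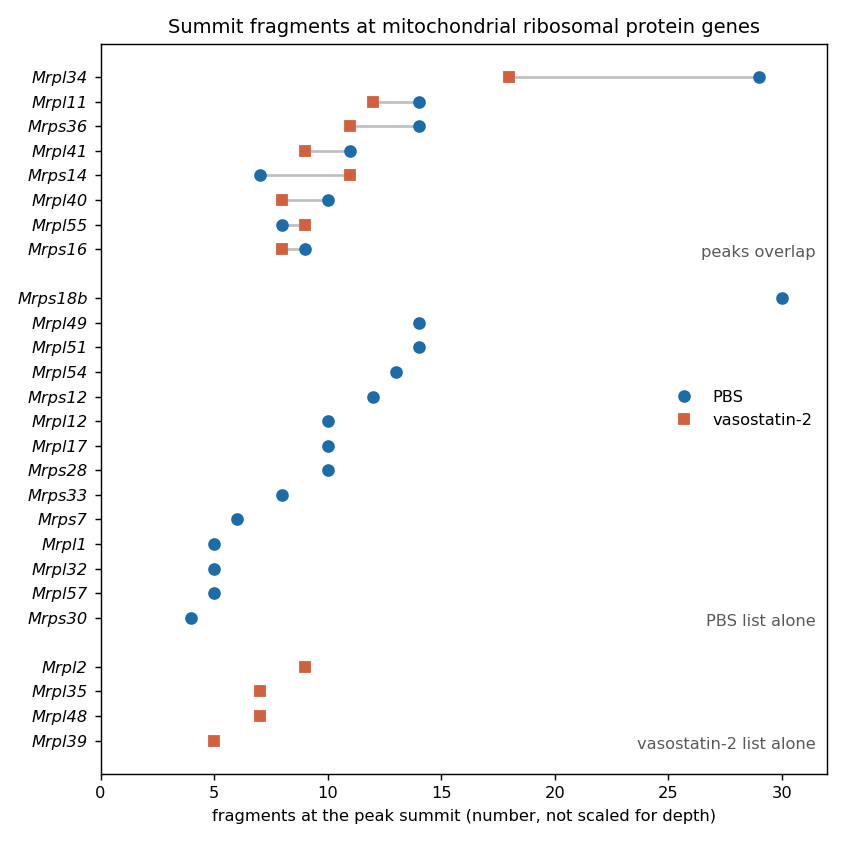
Fragments at the peak summit (number, horizontal axis, not scaled for depth) for the 26 members with a peak, in the PBS list (blue circles) and the vasostatin-2 list (orange squares), with grey lines joining overlapping peaks. Most members hold 4 to 14 fragments, and Mrpl34 (29 and 18) and Mrps18b (30, PBS alone) stand apart.

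The 14 members of the PBS list alone held 4 to 30 fragments, with a median of 10, and enrichment of 3.59-fold to 8.9-fold. The nearest vasostatin-2 summit was at least 11449 bp away from each. Mrps18b, 1 of the paralogs of the bacterial S18 protein, had the most signal. Its PBS peak (chr17:35916173-35916943, 771 bp wide) held 30 fragments (exact Poisson interval 20.2 to 42.8), with 8.58-fold enrichment, -log10 p of 22.1 and -log10 q of 17.3. The summit lay 210 bp before Mrps18b and 138 bp inside Ppp1r10, the gene of a nuclear phosphatase regulator that starts 71 bp away on the other strand. The nearest vasostatin-2 summit was 46112 bp away, although vasostatin-2 peaks were listed with as few as 4 fragments. Of the 293 PBS peaks at protein-coding gene ends with 20 to 49 fragments 92.8% overlapped a vasostatin-2 peak, which puts Mrps18b among the 21 that did not.

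Mrpl51 had the highest fold of the PBS list alone (chr6:125191763-125192148, 8.9-fold, -log10 p of 14.9, -log10 q of 10.5), with 14 fragments. Its summit was 388 bp before the start and 288 bp inside Ncapd2, a condensin gene 99 bp away. Mrps28 (chr3:8923526-8923943, 7.74-fold, 10 fragments, -log10 p of 11.9, -log10 q of 7.74) had a summit 76 bp inside the gene, whose start is not listed. Mrps33 (chr6:39810656-39810941, 6.87-fold, 8 fragments, -log10 p of 10.3, -log10 q of 6.26) had its summit 45 bp after the start. Mrpl17 (chr7:105811024-105811239, 6.72-fold, 10 fragments, -log10 p of 10.0, -log10 q of 6.05) had it 77 bp before the start. No protein-coding gene shares the peak at these 3 members.

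The other 9 members of the PBS list alone were Mrpl1, Mrpl12, Mrpl32, Mrpl49, Mrpl54, Mrpl57, Mrps7, Mrps12 and Mrps30. Mrpl49 held 14 fragments, Mrpl54 13, Mrps12, the gene of a protein at the decoding centre, 12, and Mrpl12, a stalk protein gene, 10. Mrps7 held 6 fragments and Mrpl1, Mrpl32 and Mrpl57 5 each. Mrps30, whose product sits in the large subunit despite its symbol, held 4, the fewest of any peak in the list. Peaks of 4 to 7 fragments overlapped a vasostatin-2 peak at 16.0% of all such PBS peaks at protein-coding gene ends, so most of such peaks lacked a counterpart. Over all PBS member peaks, those with 4 to 9 fragments had a counterpart in 3 of 9 cases (33.3%), against 23.0% of 1337 such peaks. With 10 to 49 fragments 5 of 13 (38.5%) had one, against 64.6% of 1365. In narrower ranges the member peaks with a counterpart were 1 of 6 with 4 to 7 fragments (16.7%, against 16.0%). They were 4 of 8 with 8 to 11 fragments (against 38.9%) and 2 of 6 with 12 to 19 (33.3%, against 63.3%). With 20 to 49 fragments they were 1 of 2 (against 92.8%). The member counts are small, the lower-range difference depends on the ranges chosen, and no difference was tested.

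The 4 members of the vasostatin-2 list alone had weaker peaks, with 5 to 9 fragments. Mrpl35 (chr6:71823451-71823760, 5.79-fold, 7 fragments, -log10 p of 8.1, -log10 q of 4.26) had its summit 207 bp inside the gene. Mrpl39 (chr16:84735385-84735688, 4.23-fold, 5 fragments, -log10 p of 5.27, -log10 q of 2.09) had it 287 bp before the start. Neither shares its peak with another gene. Mrpl2 (chr17:46645767-46646017, 4.77-fold, 9 fragments, -log10 p of 6.59, -log10 q of 3.08) overlaps Klc4, a kinesin light chain gene, by 18 bp at the start. Mrpl48 (chr7:100607155-100607397, 5.05-fold, 7 fragments, -log10 p of 6.7, -log10 q of 3.16) overlaps Rab6a, the gene of a Golgi GTPase, by 727 bp. Mrpl48 also held overlapping peaks of both lists deeper inside the gene, outside the limit of 1 kb. The Mrpl48 peak named here was the member peak closest to the limit of 1 kb, with its edge 904 bp from the gene end, and the next in that list, Mrpl28, was 2946 bp away. In the PBS list the outermost member inside the limit was Mrpl1 at 480 bp and the first outside it Mrpl18 at 1422 bp.

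Of the 26 members with a peak, 15 shared it with a protein-coding neighbour, and at 12 of these the pair was head-to-head. In the PBS list 13 of 22 member peaks (59.1%) reached within 1 kb of another protein-coding gene's end, against 22.0% of all 2723 peaks at protein-coding gene ends. Among the vasostatin-2 peaks 6 of 12 did (50%), against 21.5% of 1922. Of the 69 members with a listed start, with or without a peak, 47.8% had another protein-coding gene's end within 1 kb of the start. The head-to-head partners in PBS were Abhd8, Hira and Pnpla7, named above, Psma2 (a proteasome subunit, with Mrpl32), Fau (a ubiquitin-like fusion with a cytosolic ribosomal protein, with Mrpl49), Ncapd2, Ska3 (a kinetochore protein, with Mrpl57), Sars2 (the mitochondrial seryl-tRNA synthetase, with Mrps12), Ppp1r10 and Gga3 (a Golgi adaptor, with Mrps7). Hgs with Mrpl12 and Cfap70 with Mrps16 are on the same strand as the member. Apba3 with Mrpl54 could not be placed because the Mrpl54 start is not listed. The summit was nearer to the neighbour's end than to the member's at 5 of 13 PBS peaks and 3 of 6 vasostatin-2 peaks, so these peaks cannot be assigned to 1 gene of the pair.

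**Figure D4:**
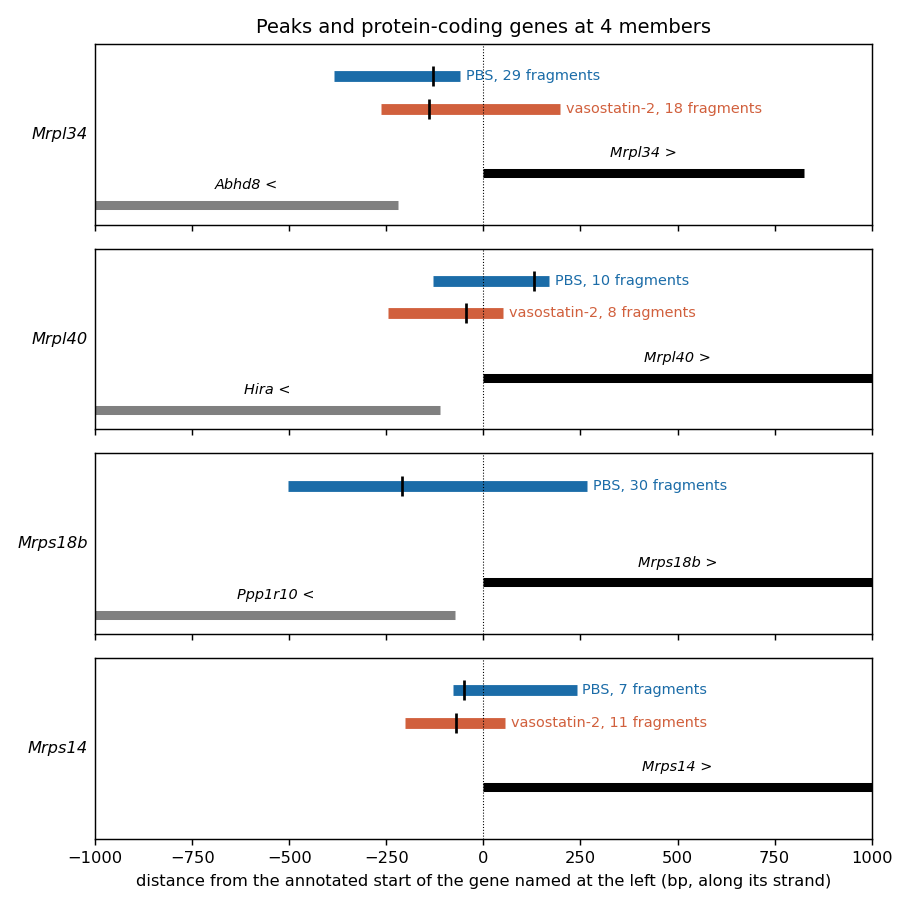
Peaks of the PBS list (blue) and the vasostatin-2 list (orange) with their summits (black ticks) and summit fragments, above the protein-coding genes, at Mrpl34, Mrpl40, Mrps18b and Mrps14. The horizontal axis gives the distance from the annotated start in bp along the strand of the member, with arrowheads for the direction of transcription. At Mrpl34 both summits lie between the member and Abhd8, and at Mrps18b the summit lies inside Ppp1r10.

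In strength the members' peaks were close to the median of peaks at gene ends. The median fold was 5.39 over the 22 PBS peaks (range 3.59 to 11.3), beside 5.8 over the 2723 PBS peaks at protein-coding gene ends. In the vasostatin-2 list it was 5.61 (4.23 to 8.76), beside 5.26. The median summit held 10 fragments in PBS, as over all gene-end peaks, and 9 in vasostatin-2, beside 8. The median -log10 q was 5.04 in PBS, beside 4.81, and 4.08 in vasostatin-2, beside 3.67. These are the authors' values within each list, and medians of the 2 lists are not compared.

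Promoters of members with a peak were close to those of all genes with a peak in GC content, GC boxes and the NR1D1 half-site. The median GC content over 24 such promoters was 61.0%, beside 58.0% over the 45 promoters of members without a peak and 62.3% over all protein-coding genes with a PBS peak. AGGTCA, on either strand, occurred in 3 of 24 (12.5%, at Mrpl12, Mrpl57 and Mrps30) and in 14.5% of all 17492 promoters, 10.7% of those of genes with a PBS peak and 9.94% with a vasostatin-2 peak. The core TAGGTCA, which contains the half-site, occurred in 0 of 24 and in 2.33% of all, and AGGTCA repeated in the same direction with 2 bases between in none of either. Neither form of AGGTCA is in the 3 stretches printed above, which says only that these letters are not in these windows. Of the housekeeping elements, GGGCGG occurred in 17 of 24 (70.8%), against 46.3% of all promoters but 73.0% of those of genes with a PBS peak and 72.1% with a vasostatin-2 peak. GCGCATGC, the core of the NRF1 element, occurred in 4 (16.7%), against 3.61% of all promoters and 6.93% and 6.11% of those with a peak. CCGGAAGT, an ETS site, occurred in 1 (4.17%), against 5.28% of all and 9.25% and 8.4% with a peak. AAGATGGCG, the core of the YY1 element, and the E-box CACGTG occurred in 1 each (1.92% and 7.91% of all), and ACTACAATT in none (0.543% of all). The 45 promoters of members without a peak held GGGCGG in 37.8%, GCGCATGC in 8.89%, CCGGAAGT in 22.2% and AAGATGGCG in 15.6%. AGGTCA occurred in 17.8% of them and CACGTG in 8.89%. Of these motifs only GGGCGG and GCGCATGC were more frequent in members with a peak, and the differences were not tested.

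Of 48 other genes of mitochondrial translation and RNA handling, in 4 lists, 13 had a PBS peak (27.1%, against 14.8% of all protein-coding genes). A vasostatin-2 peak was found at 5 (10.4%), the same as the 10.4% of all protein-coding genes, and all 5 had one in both lists. They were Dap3 and Aurkaip1, ribosomal protein genes under other symbols, the release factor gene Mtrf1l, and the assembly genes Noa1 and Tfb1m. Mtrf1l held 30 fragments in PBS (12.1-fold) and 17 in vasostatin-2 (8.27-fold), close to the values of Mrpl34. Tfb1m, a ribosomal RNA methyltransferase gene, held 9 in both lists, Noa1 9 and 6, Aurkaip1 9 and 6, and Dap3 7 and 7. By list the PBS and vasostatin-2 counts were 3 and 2 of 5 ribosomal proteins under other symbols, 2 and 1 of 12 translation factors, 5 and 2 of 20 assembly and RNA modification genes, and 3 and 0 of 11 genes of mitochondrial transcription and messenger handling.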

How the data were processed

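Deposited files of 2 NR1D1 CUT&Tag libraries were analysed, 1 peak list per treatment. Per the submitters' processing notes the tools include Trimmomatic 0.39, BWA 0.7.17 and MACS2 2.2.7.1, with build mm10. The deposited lists hold, per peak, the authors' fold enrichment over background, -log10 p and -log10 q, and a score that equals 10 times the -log10 q without decimals. Peaks were called per library by the authors.

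The whole number of fragments at each summit was worked back from the caller's formulas for fold enrichment and -log10 p. A solution within 0.0005 was found for 100% of 7377 PBS and 8816 vasostatin-2 peaks, with a close second solution at 4 and 0. The median summit held 8 and 7 fragments. The relative depth of 1.32 was inferred from the uniform background and fragment length in these values and is not a read count. Overlaps were computed directly from the coordinates, a step that gave the result of bedtools 2.31.1 on simulated intervals. Gene ends came from RefSeq for GRCm38.p6, and the recovery of fragment numbers was also tested on simulated data.

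The members and gene lists were chosen with earlier results of these data known. Every member with a peak is named, and those with a shared site or, in each list, the 5 of highest fold without one, are given in full. With 1 library per treatment no test was made. Intervals are 95% Wilson intervals for shares, exact Poisson for fragments and exact binomial for ratios, and cover counting error only. Alternatives changed the window, peak threshold, overlap and depth scaling.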

Additional observations from a re-analysis of the deposited data

How the results depend on the processing

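Of 55 values recomputed under other settings 38 stayed within 1.5 times the count given above or, for a median, within the members' middle range, and 17 moved. A reversal was defined only for the median log2 fragment ratio, which stayed below 0 in each of its settings. Fewer members had a vasostatin-2 than a PBS peak in 7 of 7 settings. These settings filter the same peak lists and are not independent. Over all genes the vasostatin-2 share was also lower wherever computed, such as 9.05% against 13.4% with the 500 bp window. With q under 1e-05, 11 members had a PBS peak (14.1%, 7.35% of all genes) and 4 a vasostatin-2 peak (5.13%, 3.47% of all genes), 3 had both, 3 had a shared site, 8 had a PBS peak alone and 1 a vasostatin-2 peak alone, and the median fold was 7.43 and 7.76, since low peaks leave the list. With at least 8 fragments 20.5% of members had a PBS peak (10.6% of all genes) and 11.5% a vasostatin-2 peak (6.36%), and 9 members had a PBS peak alone and 2 a vasostatin-2 peak alone. With a minimum of 8 PBS and 11 vasostatin-2 fragments, 4 members had a vasostatin-2 peak (5.13%, 3.18% of all genes). Of the members, 3 then had both, 1 had the vasostatin-2 peak alone and 13 had a PBS peak alone. A reciprocal overlap of 50% left 5 shared sites, as did summits within 200 bp. For members in both lists, in 1 list alone or with a shared site, the share over all genes was not computed under these settings. The median log2 fragment ratio was -0.26 without depth scaling and -1.09 for the 1 pair with at least 30 fragments, Mrpl34. An alternative with deposited folds in that ratio was not run, because folds served here only to describe and rank peaks within their own list. Leaving out a library was not possible with 1 per treatment. The few fragments per summit limit all comparisons of single sites.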

Other observations

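Peaks inside members but away from the annotated gene ends were found at 3 genes, which were chosen after their values were seen. Mrpl18 held a PBS peak (chr17:12916115-12916365) with 8 fragments and 5.78-fold enrichment, 73 bp before a listed start that lies inside the gene model. Mrpl48 held overlapping peaks of both lists (chr7:100590978-100591372 in PBS and chr7:100590890-100591207 in vasostatin-2), each with 11 fragments, at 6.38-fold and 6.86-fold. Their summits were 371 and 432 bp from the nearest of the 4 starts listed for Mrpl48, so that gene carries a shared site that a count at the outer gene ends leaves out. Mrps27 held a PBS peak (chr13:99391211-99391618) with 11 fragments and 7.95-fold enrichment, 46487 bp from its start.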
